A study of Mus musculus with 47 samples.

Results

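The comparison described here was the average difference in liver transcript levels between mice exposed to ultraviolet radiation (UVR) and mice that were not, taken over every sunscreen level of the study. All 47 arrays of the series entered it, 23 from mice labelled as receiving 29 kJ/m2 UVR and 24 from mice labelled as receiving none, and the members were chosen by those labels alone. Each array was hybridised with liver RNA from a single SKH:QS mouse, an albino hairless strain with an intact immune system, taken after 36 weeks in the study and 30 treatments. The 36 weeks count time in the study and not the age of the mice. The question it addressed was whether repeated irradiation of the skin left a trace in liver gene expression that did not depend on what had been applied to the skin.

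The mice fell into 8 groups. Control-UVR and Control + UVR mice (6 and 6) received no sunscreen and were sham treated with collars and washing. ZnO-UVR (6) and ZnO + UVR (5) mice received a sunscreen in which zinc oxide nanoparticles were the only active agent. TiO2-UVR and TiO2 + UVR mice (6 and 6) received a sunscreen that combined titanium dioxide nanoparticles with the organic filters octylmethoxycinnamate and butyl methoxydibenzoylmethane. Organic-UVR and Organic + UVR mice (6 and 6) received a sunscreen with those same filters plus 4-methylbenzylidene camphor and octocrylene. All mice were female and all wore collars during treatment, and the irradiated mice were killed about a day after the last exposure. The methods describe mice housed together in numbers equal to a treatment group, whereas the labels speak of individual housing. Where a cage held a single group, cage and treatment group cannot be told apart, and p-values then cover only the spread between these mice.

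UVR is absorbed in the skin and does not reach the liver, so any effect on this organ has to travel through circulating signals such as cytokines, stress hormones or vitamin D, or through behaviour and feeding. Direct UV damage to DNA is repaired by nucleotide excision repair and raises p53 target genes in irradiated cells, while skin inflammation is known to raise acute phase proteins in the liver. The liver also runs a circadian clock, in which the activators Bmal1, Clock and Npas2 bind E-box sequences and drive the Per, Cry and Nr1d repressors, together with the output factors Dbp, Tef and Hlf that act on D-box sequences.

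The markers of the labelled tissue were high. The 8 measured hepatocyte markers had a median log2 level of 12.34, against a median of 5.24 over all transcripts, whereas the 9 measured keratinocyte markers had a median of 4.49 and the 7 T and NK cell markers a median of 4.19. Organic-UVR replicate 1 stood apart from the other arrays. Its slope on the mean of all arrays was 0.77, while the next lowest array, Organic + UVR replicate 4, had 0.90, and its mean correlation with the other arrays was the lowest at 0.92. ZnO-UVR replicate 4 held Slc4a1, the anion exchanger of red cells, at 8.16 and the 4 measured macrophage markers at a mean of 8.50, above every other array, whose highest values were 5.69 and 7.80. The array slope averaged 0.99 ± 0.04 (SD, n = 23) with UVR and 1.01 ± 0.06 (SD, n = 24) without, a difference of -0.01 (permutation test within sunscreens, two-sided, p = 0.373). Without Organic-UVR replicate 1 that difference was -0.02 (permutation p = 0.0266). With the slope as a covariate, 0 transcripts passed the test of the average UVR effect described next, with a smallest limma adjusted p of 0.371.

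None of the transcripts with deposited values passed the test for an average difference between the irradiated and the non-irradiated livers. Of 9815 transcripts, 0 passed an adjusted p of 0.1 (0%, limma with Benjamini-Hochberg adjustment, with the sunscreen and the replicate number in the model), and the smallest adjusted p was 0.591. At an unadjusted p under 0.05, 310 transcripts were higher with UVR (3.16%) and 370 were lower (3.77%). The median difference over all transcripts was 0.01 on the log2 scale. Leaving out the arrays numbered 1 in every group, Organic-UVR replicate 1 among them, brought the smallest adjusted p to 0.102, still with 0 called. The difference had the same sign within all 4 sunscreen levels for 1398 transcripts (14.2%).

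The intervals around these differences were narrow, so the comparison set a bound on the size of an average difference in array signal. The median level over all transcripts was 5.24, beside 4.49 for the keratinocyte and 4.19 for the T and NK cell markers. For transcripts near these marker levels, whether the signal followed the amount of RNA was not tested. With the dimmer transcripts left out, 0 passed the test (smallest limma adjusted p 0.477). The 95% interval reached a median of 0.15 log2 units to either side of the estimate, and 0.24 at the 95th percentile of transcripts. For 6843 transcripts (69.7%) it lay wholly between -0.25 and 0.25, and for 9717 (99.0%) between -0.5 and 0.5. Only 78 transcripts differed by more than 0.25 in either direction, and 1 by more than 0.5. The number of arrays limits this precision. Like the p-values, the intervals cover only the spread between these mice and not that between cages.

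**Figure D1:**
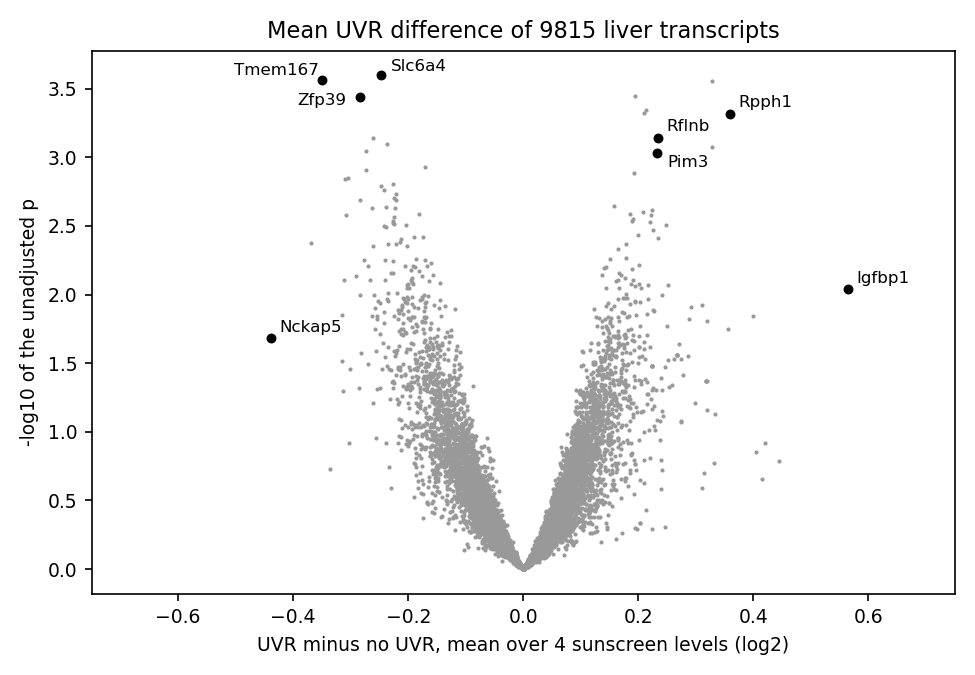
Each point is 1 of 9815 transcripts, with the log2 difference between UVR and no UVR averaged over 4 sunscreen levels on the horizontal axis and the negative log10 of the unadjusted limma p on the vertical axis. None passed adjustment, and Igfbp1 at 0.56 was the only transcript beyond 0.5.

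The transcript with the smallest p was Slc6a4, the serotonin transporter, at a mean level of 4.67 beside a median of 5.24 over all transcripts. Across the 24 non-irradiated mice it ranged from 4.43 to 5.21 with a median of 4.78, and across the 23 irradiated mice from 4.10 to 4.86 with a median of 4.56. The ranges overlapped over most of their width. The difference was -0.25 ± 0.06 (SE; unadjusted p = 0.000254, limma adjusted p = 0.591), and it was below 0 within each of the 4 sunscreen levels and each of the 6 replicate numbers. As the gene was chosen by the smallest p of this average on the same arrays, agreement in sign was favoured by the choice. Of all 9815 transcripts, 1398 (14.2%) kept the same sign in all 4 sunscreen levels and 294 in all 6 replicate numbers.

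Tmem167, which encodes a small membrane protein of the secretory pathway, ranged from 3.45 to 5.05 (median 4.29) without UVR and from 3.48 to 4.40 (median 3.92) with UVR. Its difference was -0.35 ± 0.09 (SE; limma adjusted p = 0.591), and it too was below 0 in every sunscreen level. Zfp39, a zinc finger gene, ranged from 5.02 to 6.18 (median 5.60) without and from 4.69 to 5.89 (median 5.32) with UVR. Its difference of -0.28 was made up of -0.66 without sunscreen and -0.04 under TiO2, with overlapping groups throughout. The other genes with the smallest p on the lower side were 2610008E11Rik, Nol11, which encodes a nucleolar protein of ribosomal RNA synthesis, Cluap1 and Cenpj, which serve cilia and centrioles, Ints7 of the Integrator complex, Pwp1 and Zfp322a, with differences from -0.31 to -0.17.

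On the higher side Rpph1, the RNA component of ribonuclease P, led. It ranged from 8.93 to 10.09 (median 9.36) without UVR and from 9.12 to 10.53 (median 9.80) with UVR. The irradiated mice lay higher as a set, while the ranges still shared most of their span. The difference was 0.36 ± 0.10 (SE; limma adjusted p = 0.591), above 0 in all 4 sunscreen levels, from 0.10 in the organic to 0.51 in the Control mice.

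Rflnb, a partner of filamins, differed by 0.23 ± 0.06 (SE; limma adjusted p = 0.649) and Pim3, a serine/threonine kinase, by 0.23 ± 0.07 (SE; limma adjusted p = 0.649). Both were above 0 in all 4 sunscreen levels and all 6 replicate numbers. Cdk1, the kinase that drives entry into mitosis, ranged from 3.45 to 4.51 (median 3.89) without and from 3.66 to 4.61 (median 4.13) with UVR, a difference of 0.22 at a level near the dim end of the array. C1ql2, Mex3d, Hmcn1, Cadps, Ect2l and Creg2 completed the genes with the smallest p, with differences of 0.16 to 0.22. Hmcn1, Cadps and Ect2l were dim as well, at mean levels of 4.16, 4.06 and 4.15, as was Tmem167 at 4.10. Some genes were represented by several probesets, and these did not always follow the one named. Of the 76 other probesets of Hmcn1, 33 lay above and 43 below 0, of the 12 others of Ect2l 11 lay above 0, and the other probeset of Tmem167 was at -0.13. All 20 genes are given as values, since none of them passed the test. They were chosen by the smallest p of the average, so their agreement in sign across sunscreens or replicate numbers is no further test.

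**Figure D2:**
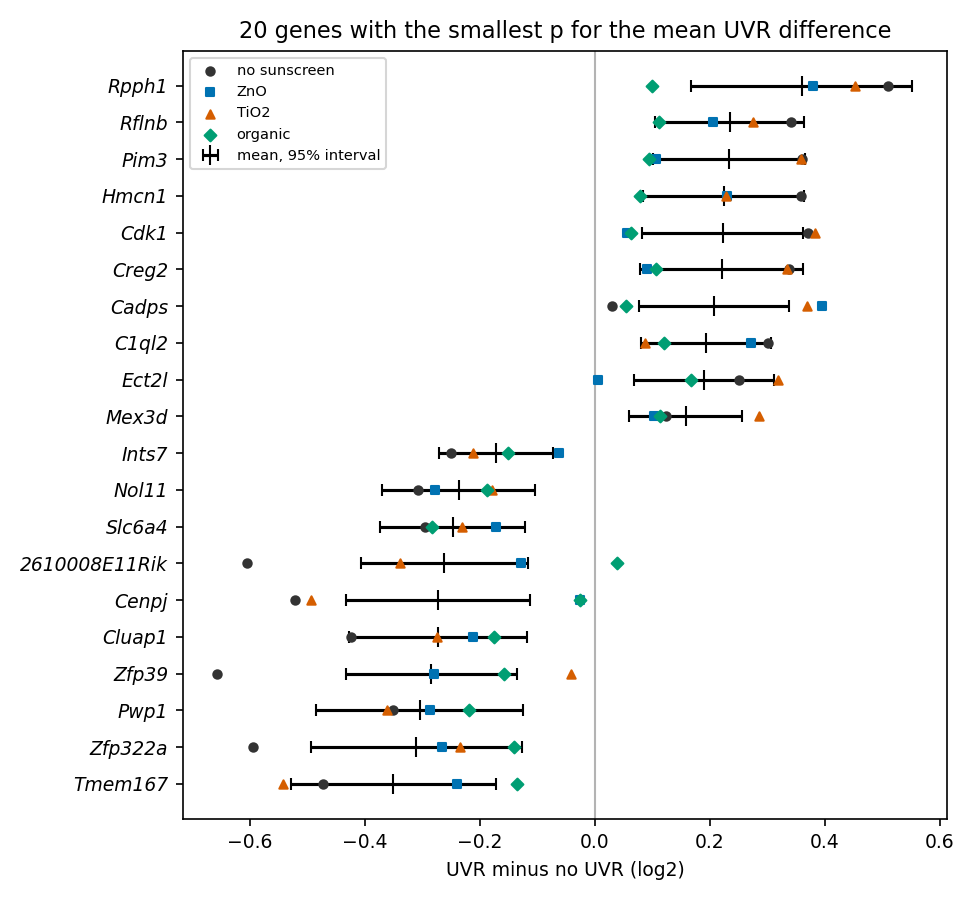
The 20 genes with the smallest p for the average UVR difference, 10 in each direction, with the log2 difference on the horizontal axis. The black bar is the mean and 95% interval and the coloured symbols are the differences within each sunscreen level. 2610008E11Rik is the only gene of the 20 with a difference on the other side of 0 in a sunscreen level.

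The largest average difference belonged to Igfbp1, the insulin-like growth factor binding protein that the liver releases in fasting and under glucocorticoids. Across the 24 non-irradiated mice it ranged from 5.82 to 8.65 with a median of 7.78, and across the 23 irradiated mice from 7.11 to 10.29 with a median of 8.09. The difference was 0.56 (95% interval 0.15 to 0.98, unadjusted p = 0.00913, limma adjusted p = 0.715). It was spread unevenly, at 1.11 without sunscreen, 1.29 under ZnO, 0.41 under the organic sunscreen and -0.48 under TiO2. In the ZnO groups the lowest irradiated mouse, at 8.09, lay above the highest non-irradiated mouse, at 7.95, though the ZnO effect did not pass the test (limma adjusted p = 0.9998). In the Control groups the ranges overlapped, with 5.91 to 8.40 without and 7.44 to 10.29 with UVR.

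None of the measured genes in the lists passed the test in the liver, those of responses that UVR is known to set off in skin among them. Coverage was partial, with 12 of 29 listed p53 targets measured, 6 of 26 nucleotide excision repair genes and 5 of 31 acute phase genes. It was 4 of 14 each for the vitamin D system and the aryl hydrocarbon receptor list. Cdkn1a, Xpc, Saa1, Cyp1a1 and Cyp24a1 were not among the measured members, so these responses were read only in part. The lists also covered other subjects, such as metabolism, cell machinery and growth control. Over 31 lists covering 332 measured genes, 0 members passed the test (0% of all transcripts did), 7 were higher and 18 lower at an unadjusted p under 0.05, and the median difference was -0.0011, beside 0.01 over all transcripts. Over all transcripts, 3.16% were higher and 3.77% lower at an unadjusted p under 0.05. For 318 of the 332 genes the 95% interval lay wholly between -0.5 and 0.5. Of 12 measured p53 target genes, 1 was lower at an unadjusted p under 0.05 and the median was -0.04. The member at that level was Polk, a translesion DNA polymerase, at -0.12 ± 0.06 (SE; limma adjusted p = 0.715). Mdm2, the ubiquitin ligase that p53 induces and that limits it, differed by -0.11 (95% interval -0.24 to 0.03), with 6.26 to 7.56 without and 6.46 to 7.36 with UVR.

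Of 6 measured nucleotide excision repair genes, none had an unadjusted p under 0.05. The median was -0.01, and the members ran from Ercc6, the transcription-coupled repair factor, at -0.06 to Rpa3, a subunit of the single-strand binding complex, at 0.11. No 95% interval in this list reached beyond 0.29 in size.

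The other repair lists leaned lower. Of 12 measured genes of double strand break repair, 3 were lower (beside 3.77% of all transcripts) and 0 higher at an unadjusted p under 0.05, with a median of -0.12 beside 0.01 over all transcripts. These were Prkdc, the catalytic subunit of DNA-dependent protein kinase, at -0.20 ± 0.07 (SE), Xrcc4 of the end-joining complex at -0.20 ± 0.09 (SE), and Rnf168, a ubiquitin ligase that marks damaged chromatin, at -0.16 ± 0.07 (SE), all with a limma adjusted p of 0.715. Prkdc ranged from 4.77 to 6.05 (median 5.77) without UVR and from 5.01 to 5.95 (median 5.47) with UVR, so the irradiated range lay inside the other.

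Of 11 measured base excision and mismatch repair genes, 4 were lower (beside 3.77% of all transcripts) and 0 higher at that level, with a median of -0.05. The mismatch repair gene Mlh3 differed by -0.25 ± 0.09 (SE), Pms1 of the same pathway by -0.23 ± 0.10 (SE), Parp2, which signals single strand breaks, by -0.21 ± 0.08 (SE), and Msh3 by -0.14 ± 0.06 (SE), all with a limma adjusted p of 0.715. Brca1 at 0.08 and Exo1 at 0.15 lay on the other side of 0. The median of both lists was lowest in the Control mice, at -0.29 for double strand break repair and -0.27 for base excision and mismatch repair. In alternatives chosen after seeing the data, as were those of the list counts given further on, 0 of 12 and 1 of 11 members were at this level without the Control arrays, 0 and 0 without the arrays numbered 4 in every group, and 1 and 1 after quantile normalization. With the array slope as a covariate 1 of 12 members of the double strand break list was at this level, with array weights 7, without the arrays numbered 1 in every group 7 and without the Organic arrays 5, while without the arrays numbered 2 or 5 it was 1. The base excision and mismatch count was 2 without the TiO2 arrays or those numbered 2 or 6. Leaving out 1 array at a time moved the counts between 1 and 6 (the latter without Organic-UVR replicate 1) and between 2 and 5 (2 when either replicate 4 of Control-UVR or replicate 6 of Control + UVR was absent).

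Immune and inflammatory genes gave a similar picture. The 5 measured acute phase genes had a median of -0.02. Itih4, a plasma acute phase protein, ranged from 11.62 to 12.69 (median 12.40) without UVR and from 11.96 to 12.52 (median 12.37) with UVR, a difference of -0.05 with a 95% interval of -0.16 to 0.06, so an average change of this transcript beyond 0.16 lay outside the interval. Of 15 measured NF-kB targets and chemokines, 0 had an unadjusted p under 0.05 and the median was 0.00, with Il10, an anti-inflammatory cytokine, at 0.12 (95% interval -0.01 to 0.26). Il10 was dim, at a mean level of 3.69, so its interval bounds the array signal only.

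Of 12 measured interferon response genes, none had an unadjusted p under 0.05, although 10 lay below 0 and the median was -0.12. Over all transcripts, 53.6% lay above 0. The list median was -0.41 without sunscreen, 0.26 under ZnO, -0.16 under TiO2 and -0.02 under the organic sunscreen. Rtp4, an interferon-induced chaperone, had the largest difference at -0.23 (95% interval -0.47 to 0.01), and Xaf1, which binds the apoptosis inhibitor XIAP, differed by -0.16 (95% interval -0.36 to 0.04).

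Endocrine routes were covered by 3 lists. All 9 measured glucocorticoid response genes lay above 0, with a median of 0.10, and 2 of them, Igfbp1 and Pim3, had an unadjusted p under 0.05. Over all transcripts, 53.6% lay above 0 and 3.16% were higher at that level. Per1, which glucocorticoids induce directly, was at 0.10 (95% interval -0.16 to 0.35) and Hsd11b1, the enzyme that regenerates active glucocorticoid, was at 0.02 (95% interval -0.15 to 0.18). The 4 measured genes of the vitamin D system had a median of 0.02, with Vdr, the receptor, at 0.06 (95% interval -0.06 to 0.17) and Cyp27a1, a mitochondrial sterol hydroxylase that also acts on vitamin D, at 0.10 (95% interval -0.08 to 0.29). The aryl hydrocarbon receptor, which responds to photoproducts of tryptophan, and its targets (4 measured) had a median of 0.06, with the target gene Ahrr at 0.06 (95% interval -0.06 to 0.18). Vdr and Ahrr were dim, at mean levels of 4.34 and 3.41, so their intervals bound the array signal only.

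All 7 measured cytosolic tRNA synthetases, which charge tRNAs with amino acids, lay below 0 with a median of -0.15, while 53.6% of all transcripts lay above 0. Of the 7, 3 were lower at an unadjusted p under 0.05 (beside 3.77% of all transcripts). These were Iars at -0.26 ± 0.10 (SE), Wars at -0.21 ± 0.10 (SE) and Mars1 at -0.18 ± 0.08 (SE), each with a limma adjusted p of 0.715. Iars ranged from 8.66 to 10.30 (median 9.95) without UVR and from 8.56 to 10.35 (median 9.75) with UVR. Its difference was -0.65 without sunscreen, -0.39 under TiO2, -0.04 under the organic sunscreen and 0.08 under ZnO. The count of 3 was 5 without Organic-UVR replicate 1 or Organic + UVR replicate 1, and 1 without any of 5 other arrays. It was 1 with the array slope as a covariate, 1 without the Control arrays, 0 without the TiO2 arrays 0 without the arrays numbered 4 in every group, 1 without those numbered 6 and 5 without those numbered 1.

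Of 28 measured respiratory chain subunits, 22 lay above 0, beside 53.6% of all transcripts, with a median of 0.06. Uqcr10 of complex III at 0.17, Ndufa12 at 0.16 and Ndufs6 at 0.14, both of complex I, were higher at an unadjusted p under 0.05 (beside 3.16% of all transcripts), a count that fell to 1 in many of the fits that left out 1 array. It was 0 without the replicate block, 0 with array weights (where 15 of the 28 lay above 0), 0 without the Control arrays or without the arrays numbered 1 or 5 in every group, 1 without those numbered 4, the ZnO or the TiO2 arrays, 7 with the array slope as a covariate and 5 once the arrays were quantile normalized. All 7 measured fatty acid synthesis genes lay above 0 (beside 53.6% of all transcripts), with a median of 0.05 and none at that level. Fatty acid oxidation genes had a median of 0.01, bile acid genes of -0.03, sterol synthesis genes of -0.01, amino acid breakdown genes of 0.00 and xenobiotic receptor and conjugation genes of 0.06, with 0 members of these last 5 lists at an unadjusted p under 0.05.

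Among the cell type markers, those of sinusoidal and vascular endothelium were the lowest. Of 9 measured, 5 were lower at an unadjusted p under 0.05 (beside 3.77% of all transcripts) and 0 higher, with a median of -0.16. Pecam1, an adhesion molecule of endothelial junctions, ranged from 5.32 to 7.03 (median 6.14) without UVR and from 4.89 to 6.49 (median 5.89) with UVR. Its difference was -0.23 ± 0.09 (SE; limma adjusted p = 0.715), with -0.43 without sunscreen and 0.01 under ZnO.

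The scavenger receptor Stab2, a marker of liver sinusoids, was at -0.16 ± 0.07 (SE) and below 0 in all 4 sunscreen levels, Gpr182 was at -0.17 ± 0.07 (SE), the phosphatase Ptprb at -0.19 ± 0.08 (SE) and the Fc receptor Fcgr2b at -0.19 ± 0.08 (SE), all with a limma adjusted p of 0.715. The mean of the 9 markers ran from 5.86 to 6.53 (median 6.24) in irradiated and from 5.94 to 6.67 (median 6.33) in non-irradiated livers, so the groups overlapped almost fully. In whole liver, fewer cells of a type and less RNA per cell cannot be told apart. The count of 5 lay between 4 and 6 in every fit that left out 1 array, and fell to 0 with all Control arrays left out. It was 1 without the arrays numbered 3 or those numbered 6 in every group, 2 without those numbered 4, 3 without those numbered 2, 3 without the Organic arrays and 3 after quantile normalization. Hepatocyte (8), macrophage (4), stellate cell (10), cholangiocyte (5) and T and NK cell (7) markers had medians between -0.06 and 0.03.

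**Figure D3:**
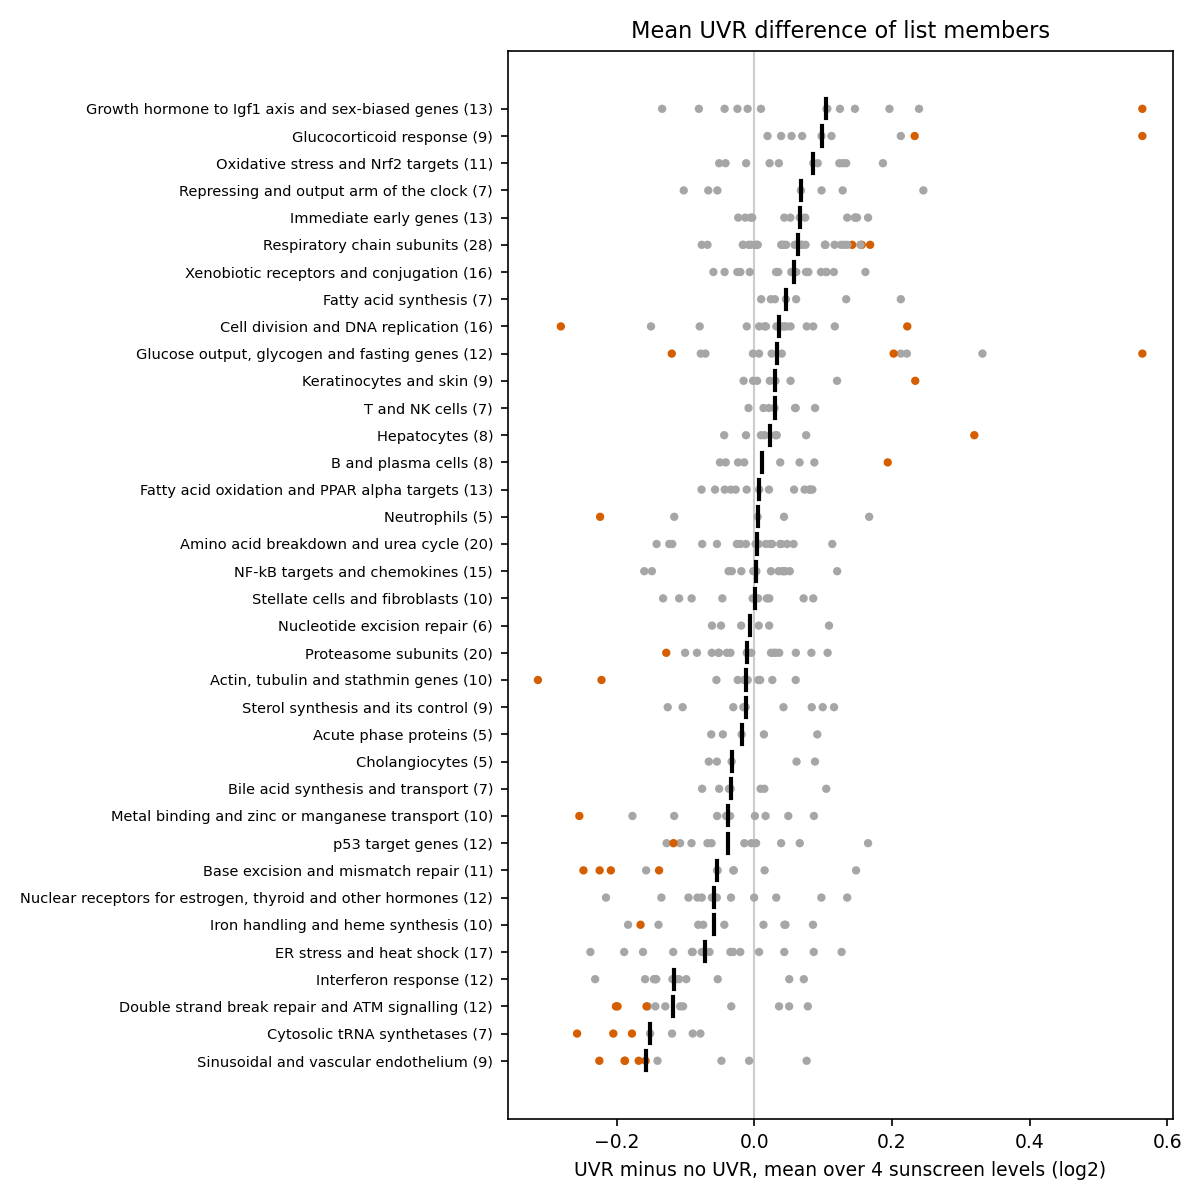
The average UVR difference (log2, horizontal axis) of every measured member of the gene and marker lists with at least 5 measured members, whose number stands in brackets. Orange points had an unadjusted p under 0.05, black bars are list medians, and all medians lie between -0.16 and 0.10.

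An average near 0 can hold effects that differ between sunscreens, so the difference between the 4 within-sunscreen UVR effects was tested for each transcript. It passed an adjusted p of 0.1 for 38 of 9815 transcripts (0.387%, limma moderated F test of the interaction), with a smallest adjusted p of 0.000362. Of these, 35 carried 1 gene symbol. The UVR effect under TiO2 was below 0 for 26 and above 0 for 12, and it was the largest of the 4 in size for 37 of them (beside 22.3% of all transcripts). The ZnO effect had the opposite sign to the TiO2 effect for all 38 (beside 54.7% of all transcripts). The 38 were chosen by a test for differing effects on these same arrays. Large effects of opposite sign were therefore favoured by the choice, and these shares are no further test. The median size of the TiO2 effect was 1.06, while the largest average difference among the 38 was -0.44, for Nckap5. Counted within each sunscreen, the UVR effect passed the test for 64 transcripts under TiO2 (23 higher and 41 lower, 0.652%), for 5 without sunscreen (all lower, 0.0509%), and for 0 under ZnO and 0 under the organic sunscreen, where 215 and 333 transcripts had an unadjusted p under 0.05. Single arrays moved these counts. Without Organic-UVR replicate 1 the interaction was called for 77 transcripts, and without sunscreen the UVR effect was called for 94. The TiO2 count was 39 without TiO2-UVR replicate 1, 41 without TiO2 + UVR replicate 4 and 31 without TiO2 + UVR replicate 6, while the 5 calls without sunscreen fell to 0 when any 1 of 6 arrays of the Control groups was left out.

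**Figure D4:**
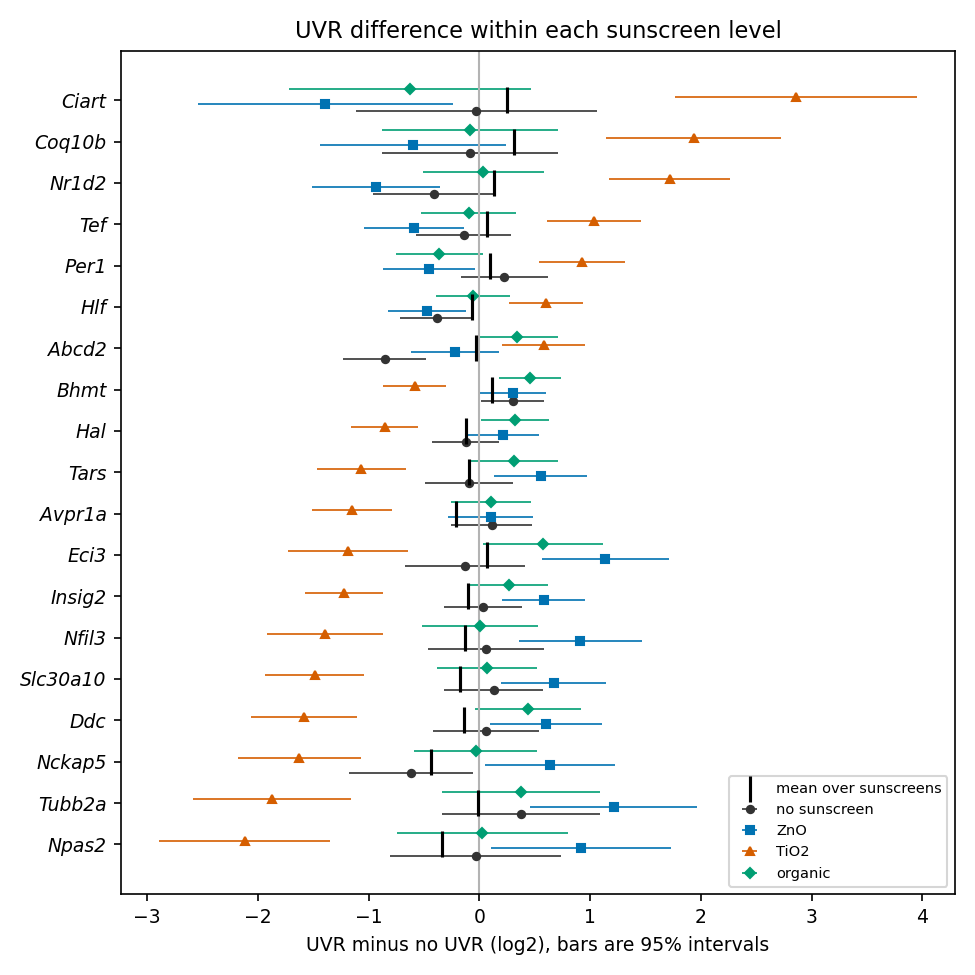
UVR minus no UVR (log2, horizontal axis) within each sunscreen level, with 95% intervals, for 19 genes whose UVR effect differed between sunscreens. The black tick is the average over sunscreens. The TiO2 effect (triangles) and the ZnO effect (squares) lie on opposite sides of 0 for each gene, and the averages lie between -0.44 and 0.31. No ZnO effect passed the test on its own.

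Clock genes made up a share of this set. Of the 7 measured genes of the repressing and output arm, 5 were among the 38, and of the 3 measured genes of the activating arm and its phase partners (Npas2 and the repressors Cry1 and Nfil3), 2 were. The share over all transcripts was 0.387%. The lists were chosen with earlier results of these data known, so these counts beside that share are no test of enrichment. Of the listed genes, 7 of 15 and 3 of 7 were measured, and Bmal1, Clock and Dbp were not among them. The list medians of the UVR effect were 0.93 under TiO2, -0.59 under ZnO, -0.14 without sunscreen and -0.10 under the organic sunscreen for the repressing and output arm, and -1.39, 0.91, -0.03 and 0.01 in the same order for Npas2, Cry1 and Nfil3. On average over sunscreens the medians were 0.07 and -0.16, with 0 members at an unadjusted p under 0.05.

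Among the named genes, Npas2, the paralogue of Clock, had the largest decrease under TiO2. It lay between 4.63 and 7.30 (median 6.30) in TiO2-UVR mice and between 3.85 and 4.46 (median 4.07) in TiO2 + UVR mice, without overlap. In ZnO-UVR mice it lay between 4.02 and 7.00 (median 6.30) and in ZnO + UVR mice between 6.37 and 6.93 (median 6.62). Under TiO2 the whole irradiated group lay lower, whereas under ZnO the irradiated mice sat in the upper part of a wide non-irradiated range. The TiO2 effect was -2.12 (limma adjusted p = 0.00177), the ZnO effect 0.92 (limma adjusted p = 0.9998), and those without sunscreen and under the organic sunscreen -0.03 and 0.02. The interaction had a limma adjusted p of 0.0107 and the average difference was -0.34 (95% interval -0.84 to 0.17).

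Both organic groups lay low for this gene irrespective of UVR, at 3.79 to 4.63 in Organic-UVR and 3.79 to 4.82 in Organic + UVR mice, overlapping the TiO2 + UVR range. The 2 lowest of the 6 ZnO-UVR mice and of the 6 Control-UVR mice lay within that range as well, as the plot of levels in single mice shows.

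Nr1d2, which encodes the heme-binding repressor Rev-erb beta, ran the other way. It lay between 6.63 and 8.70 (median 7.62) in TiO2-UVR and between 9.13 and 9.59 (median 9.25) in TiO2 + UVR mice. In ZnO-UVR mice it lay between 7.97 and 9.40 (median 8.31) and in ZnO + UVR mice between 7.15 and 7.89 (median 7.78). Neither pair of groups overlapped, and the directions were opposite. The TiO2 effect passed the test (limma adjusted p = 0.000276), whereas the ZnO effect did not (limma adjusted p = 0.9998). The effects were 1.72 under TiO2, -0.94 under ZnO, -0.41 without sunscreen and 0.04 under the organic sunscreen, with a limma adjusted p of 0.00055 for the interaction and an average of 0.13 (95% interval -0.27 to 0.53).

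Ciart, a repressor of the Bmal1 and Clock pair, had the widest spread. It lay between 4.60 and 5.97 in TiO2-UVR and between 7.34 and 9.13 in TiO2 + UVR mice, an effect of 2.86 (limma adjusted p = 0.00253), against -1.39 under ZnO (limma adjusted p = 0.9998), where the ZnO-UVR mice ran from 4.87 to 9.04. Its average was 0.25 with a 95% interval of -0.48 to 0.97, reaching 0.72 to either side, so for this gene an average change in either direction was poorly bounded. Per1 (0.93 under TiO2 and -0.46 under ZnO), Tef (1.03 and -0.59), and Hlf (0.60 and -0.47) followed the direction of Ciart, Hlf losing its interaction call in 6 of the 47 fits that left out 1 array each. Nfil3, the repressor that competes with Tef and Hlf at D-boxes, went with Npas2, at -1.39 under TiO2 and 0.91 under ZnO.

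**Figure D5:**
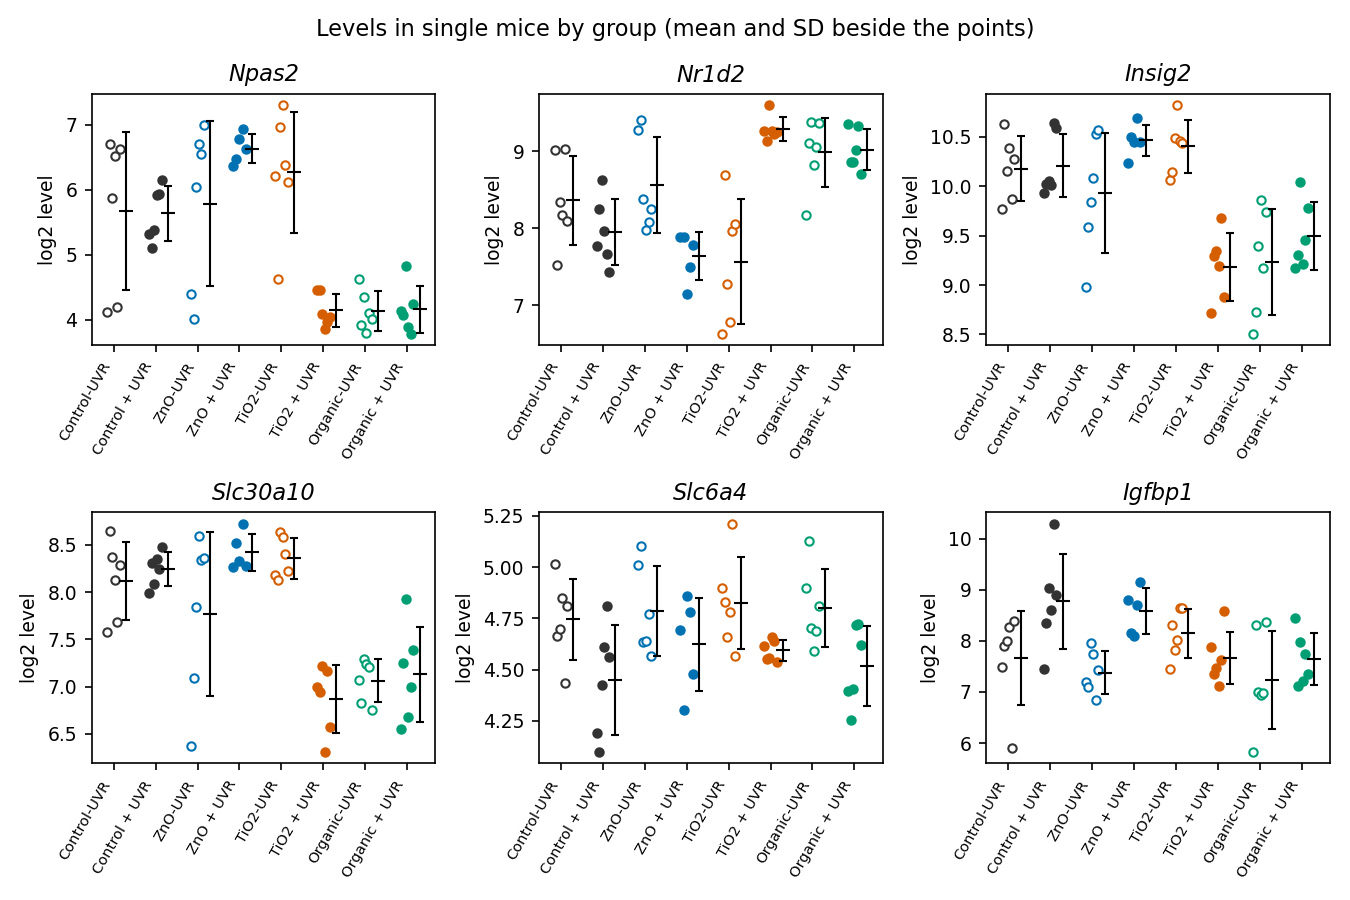
Log2 levels in single mice (vertical axes) of 4 genes whose UVR effect differed between sunscreens and of Slc6a4 and Igfbp1, by group. Open symbols are mice without and filled symbols mice with UVR, and the bars are the mean and SD of 5 or 6 mice. TiO2 + UVR stands apart from TiO2-UVR in the first 4 panels, while the groups overlap for Slc6a4.

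Clock factors act through short sequences in promoters, so promoters of clock genes in this set that held a motif named below are shown. Those of the clock genes Npas2 and Hlf held neither motif and are not shown. The windows are 60 bases each from the RefSeq promoters (GRCm38.p6), written 5′ to 3′ on the gene's strand, with the E-box CACGTG of the first 3 and the motif AGGTCA (or its reverse complement TGACCT) of the last 2, which Rev-erb and ROR factors can bind, in capitals.
Per1, chr11:69098756-69098815, + strand: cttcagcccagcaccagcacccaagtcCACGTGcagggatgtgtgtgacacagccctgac
Tef, chr15:81802519-81802578, + strand: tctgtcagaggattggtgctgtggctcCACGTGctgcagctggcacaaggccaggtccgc
Ciart, chr3:95882312-95882371, - strand: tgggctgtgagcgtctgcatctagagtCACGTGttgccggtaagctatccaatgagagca
Nr1d2, chr14:18239151-18239210, - strand: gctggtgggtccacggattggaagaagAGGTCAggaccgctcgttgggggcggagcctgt
Nfil3, chr13:52981019-52981078, - strand: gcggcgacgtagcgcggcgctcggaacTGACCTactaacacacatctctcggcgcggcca

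Of the 35 named genes, 32 matched a promoter by symbol (not Abcd2, Asap2 and Mfsd4b3-ps), with 49 promoters of 300 bases. CACGTG, which reads the same on both strands, stood in 9 of the 49 (18.4%), those of Bnip3, Ciart, Coq10b, Per1, Rnf145, Tars, Tef and Tsc22d1, and in 7.15% of all 32851 promoters. Of these genes, Per1, Tef, Ciart, Coq10b, Rnf145 and Bnip3 had a TiO2 effect above 0 and Tars and Tsc22d1 one below 0. AGGTCA on either strand stood in 11 of the 49 (22.4%) and in 16.3% of all promoters. A match describes the letters in these windows and no binding.

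Outside the clock lists, the interaction was called for 3 of 20 measured genes of amino acid breakdown, 2 of 13 of fatty acid oxidation, 1 of 9 of sterol synthesis, 1 of 10 of metal transport and 1 of 7 tRNA synthetases, beside 0.387% of all transcripts. These lists too were chosen with earlier results of these data known, so the counts are no test of enrichment. Insig2, the endoplasmic reticulum protein that holds back sterol-regulated transcription, had the smallest p of the interaction (limma adjusted p = 0.000362). It lay between 10.07 and 10.82 (median 10.45) in TiO2-UVR and between 8.71 and 9.68 (median 9.24) in TiO2 + UVR mice, without overlap, an effect of -1.22. Under ZnO the effect was 0.58, with 8.98 to 10.57 in ZnO-UVR and 10.24 to 10.69 in ZnO + UVR mice, and the average over sunscreens was -0.10.

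Slc30a10, a manganese exporter of liver and gut, lay between 8.13 and 8.63 in TiO2-UVR and between 6.31 and 7.22 in TiO2 + UVR mice, an effect of -1.49, against 0.67 under ZnO and 0.13 without sunscreen (limma adjusted p of the interaction 0.00055). Ddc, the decarboxylase that makes dopamine and serotonin, fell by 1.59 on the log2 scale under TiO2, against an effect of 0.60 under ZnO (interaction adjusted p = 0.00055, limma). Tubb2a, a beta tubulin, lay between 8.40 and 9.70 in TiO2-UVR and between 6.19 and 8.08 in TiO2 + UVR mice, an effect of -1.88, against 1.21 under ZnO, and its average was -0.01.

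Other genes of the set, chosen after their values were seen, were Eci3, a peroxisomal enzyme of fatty acid oxidation (-1.19 under TiO2 and 1.14 under ZnO), Hal, the first enzyme of histidine breakdown (-0.85 and 0.22), Bhmt, which remethylates homocysteine (-0.58 and 0.30), the threonyl tRNA synthetase Tars (-1.07 and 0.55), and the vasopressin receptor Avpr1a (-1.15 and 0.10). Coq10b, which serves coenzyme Q function, was at 1.93 under TiO2 and -0.60 under ZnO, although its interaction lost its call in 12 of the 47 fits that left out 1 array each. Abcd2, a peroxisomal transporter of fatty acids, differed from the rest in that its largest effect was without sunscreen, at -0.85, with 0.58 under TiO2.

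Over the 38 transcripts, the irradiated and non-irradiated TiO2 mice did not overlap for 28, beside 0.734% of all transcripts. For the same transcripts the groups did not overlap for 2 under ZnO (beside 0.214% of all transcripts), 1 without sunscreen (beside 0.642%) and 0 under the organic sunscreen (beside 0.0306%). As the 38 were chosen by the interaction test on these same arrays, separated groups were favoured by the choice. Across all 9815 transcripts, the UVR effects under ZnO and under TiO2, which share no arrays, correlated at r = -0.32, and the other pairs of sunscreens lay between -0.09 and 0.19. These are descriptions across transcripts, which are not independent of each other, of effects measured on arrays that share processing days.

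A clock score, the mean standardised level of the repressing and output genes minus that of Npas2, Cry1 and Nfil3, moved with these effects. Its median was -1.66 (-2.90 to 0.61) in TiO2-UVR and 1.62 (0.18 to 2.30) in TiO2 + UVR mice, -0.81 (-1.82 to 2.05) in ZnO-UVR and -2.21 (-2.33 to -1.07) in ZnO + UVR mice, and -1.12 (-2.11 to 1.78) in Control-UVR and -0.68 (-1.72 to 0.12) in Control + UVR mice. In Organic-UVR and Organic + UVR mice it was 1.39 (1.20 to 2.68) and 1.47 (0.88 to 1.93). With this score as a covariate, 0 transcripts passed the interaction test, 0 the test under TiO2 and 0 the test of the average UVR effect. The score is built from the same arrays, 7 of its 10 genes were themselves called, and the hour at which each mouse was killed is not given in the sources used here, so clock phase and treatment cannot be told apart here.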

How the data were processed

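Liver RNA of 47 mice was hybridised to Affymetrix Mouse Gene 1.0 ST arrays in batches that each held all groups. The deposited values were log2 levels that the authors normalised by robust multi-array average (RMA). Their methods mention removal of batch effects, and the sources used here do not state whether the deposited values carry it. Of 16383 rows, 6568 control probesets numbered below 10344614 were left out and 9815 transcripts were tested. These are fewer than the gene transcripts that the study names for this array, and genes without a row could not be tested. Of the listed genes, 12 of 29 p53 targets and 6 of 26 nucleotide excision repair genes were measured, for example. Probes were named through the platform annotation, updated by Entrez number to RefSeq symbols for 7421 transcripts (7450 had 1 symbol, 511 several and 1854 none).

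Samples were grouped by the labels. The average UVR effect was fitted in limma 3.58.1 (R 4.3.3) with the sunscreen and the replicate number as terms (37 residual degrees of freedom). Within-sunscreen effects and their interaction came from a fit of 8 groups and the replicate number (34 residual degrees of freedom). A call was a Benjamini-Hochberg adjusted p under 0.1, the rate of false discovery that the methods name. All intervals are 95%. The slope of each array was that of its values on the mean of all arrays, and its difference was tested with 100000 permutations of the UVR labels within sunscreens.

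The named genes were up to 10 called per direction, filled up to 10 by the smallest p among transcripts with 1 symbol, 2 members of each list on damage, immunity, the clock and hormones, and the 5 smallest p of the interaction. Igfbp1 and Pim3 came in through the glucocorticoid list. Members of the other lists, and interaction genes beyond those 5, were named after their values were seen. Lists (31, and 12 of cell markers) used the brightest transcript per gene. The members and lists were chosen with earlier results of these data known. The fits were tested on simulated data. Alternatives covered the block, the sunscreen term, array weights, normalization, covariates, dim transcripts, variances, the threshold, 1 transcript per gene, and arrays, replicate numbers or sunscreens left out.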

Additional observations from a re-analysis of the deposited data

Results flagged for a closer look

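In 64 comparisons of a group of 5 or 6 mice, covering the array slope and 7 genes in 8 groups, 6 values lay apart from the rest of their group by more than Dixon's 95% critical value, which chance alone gives in about 1 group in 20. The array slope was 0.7725 in Organic-UVR replicate 1 and 1.051 in Control-UVR replicate 6. Ddc was at 7.4648 in Control + UVR replicate 1 and at 6.0542 in Organic-UVR replicate 1, below the other mice of each group. Nr1d2 was at 9.5942 in TiO2 + UVR replicate 3, above its group, and Tubb2a at 8.6404 in Control + UVR replicate 3, below it.

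The UVR effect differed between the 4 sunscreen levels for the 19 genes given with values, by limma's moderated F test of the interaction adjusted over all 9815 transcripts. In the clock lists the adjusted p was 0.00055 for Nr1d2, 0.005385 for Nfil3, 0.008284 for Ciart, 0.01074 for Npas2, 0.01274 for Per1, 0.01345 for Tef and 0.04903 for Hlf. It was 0.0003617 for Insig2, 0.00055 for Ddc, 0.00055 for Slc30a10, 0.004616 for Tubb2a, 0.004841 for Eci3, 0.005736 for Tars, 0.007357 for Hal and 0.007621 for Avpr1a. For Abcd2, Bhmt and Nckap5 it was 0.008284 each, and for Coq10b 0.07361.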

How the results depend on the processing

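The average UVR effect was called for 0 transcripts under all 68 alternatives, among them the fit without the replicate block (0 called, smallest adjusted p 0.853) and the fit with array weights (smallest adjusted p 0.130). The lowest of these smallest values was 0.102, without the arrays numbered 1 in every group. The interaction was called for 28 to 77 transcripts when 1 array was left out, for 30 without the replicate block, 206 with array weights, 65 after quantile normalization, 121 with the array slope as a covariate and 0 with the clock score as a covariate. All 38 transcripts were among the 206, the 65 and the 121. The count under TiO2 was 31 to 83 with 1 array left out, 42 without the replicate block, 100 after quantile normalization, 178 with the slope and 0 with the clock score as covariates. The count without sunscreen was 0 to 94 with 1 array left out, 0 without the replicate block, 355 with array weights, 0 after quantile normalization, 0 with the slope and 12 with the clock score as covariates, 10 without dim transcripts, 0 at an adjusted p under 0.05 and 12 with 1 transcript per gene. With array weights 6 transcripts were called under ZnO and 5 under the organic sunscreen, where the other settings gave 0. The causes were not tested.

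The difference in array slope lay between -0.0235 and -0.0089 with 1 array left out, and was -0.0235 without the array of lowest slope (permutation p = 0.0265) and -0.0257 over the Control and ZnO arrays (permutation p = 0.0426). Without the TiO2 arrays the average difference turned to -0.0155 for Rpa3, -0.1916 for Per1, -0.6696 for Ciart, 0.2914 for Npas2, 0.2892 for Insig2, -0.4268 for Nr1d2 and 0.6521 for Tubb2a. Nr1d2 also turned to -0.0035 with array weights and -0.0037 with the clock score as a covariate. Tubb2a, whose average was near 0, turned to 0.0216 with 8 group means, 0.0508 with array weights, 0.0593 after quantile normalization, 0.013 with the slope and 0.1439 with the clock score as covariates. Over fits with arrays left out, Ercc6 lay between -0.1293 and 0.0013, Itih4 between -0.0881 and 0.0086 and Tubb2a between -0.1407 and 0.0985. No other of the 47 average differences recomputed this way turned. Averages of the other interaction genes were not recomputed. The replicate numbers were not shown to pair the arrays. Deviations from the group means correlated at a mean of 0.153 between arrays of any different groups with the same number (other numbers -0.0282). Between irradiated and non-irradiated mice of the same sunscreen and number, the correlation was over 0.1 in 15 of 23 pairs (-0.508 to 0.639).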
